A study of Mus musculus with 2 samples.

Results

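The subject is a set of 9 keratin genes of the interfollicular epidermis, the skin surface between hair follicles: Krt5, Krt14, Krt15, Krt1, Krt10, Krt2, Krt77, Krt78 and Krt80. They were given as a list of symbols, and all 9 were found among the 53 keratin genes and 31053 genes of the deposited matrices. Single cells of dorsal skin were compared between 1 library from Chrna5-/- mice and 1 from wild-type (WT) mice, both of strain C57BL/6 per the labels and both given vaseline, a cream base. Chrna5 encodes a nicotinic acetylcholine receptor subunit. The mice were females of 6 to 8 weeks, with skin collected at day 7. The breeding protocol names C57BL/6N, with the knockout backcrossed to it, and the extraction protocol names C57BL/6J. That protocol also speaks of imiquimod, while the sample labels name vaseline for both libraries. The cells had been sorted as live, and the sources used here give neither how many mice were pooled for a library nor which part of Chrna5 is deleted.

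Keratins are the intermediate filament proteins of epithelial cells, and each filament is built from pairs of 1 type I and 1 type II keratin. Basal keratinocytes, which sit on the basement membrane and divide, make the pair of Krt5 (type II) and Krt14 (type I), with Krt15 (type I) beside them. Cells that leave the basal layer switch to the pair of Krt1 (type II) and Krt10 (type I), and the type II keratins Krt2, Krt77 and Krt78 belong to upper layers of mouse epidermis. Krt80 is a type II keratin of stratified epithelia.

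On GRCm38 with GENCODE vM21, the type I genes lie on chromosome 11 and the type II genes on chromosome 15, each on the minus strand. Krt10 (ENSMUSG00000019761) spans 11:99385254-99389364, Krt15 (ENSMUSG00000054146) spans 11:100131758-100135928 and Krt14 (ENSMUSG00000045545) spans 11:100203162-100207548. Krt80 (ENSMUSG00000037185) spans 15:101347444-101370162 and Krt5 (ENSMUSG00000061527) spans 15:101707070-101712898. Krt2 (ENSMUSG00000064201, 15:101810689-101818169), Krt1 (ENSMUSG00000046834, 15:101845426-101850794) and Krt77 (ENSMUSG00000067594, 15:101858731-101869705) are direct neighbours in that order. Krt78 (ENSMUSG00000050463) spans 15:101946001-101954287. In the last 500 bases of their transcripts, 43 of the 451 windows of 50 bases in Krt14 (9.53%) also occurred in transcripts of Krt16 or Krt17, so reads from those windows cannot be assigned to 1 gene. For each of the other 8 members that count was 0.

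Promoter sequences from RefSeq (GRCm38.p6) were found for 6 of the 9, covering 250 bases before and 50 bases after the start used there. The Krt14 window (11:100205981-100206280) lay inside the gene span given above, so it does not surround that gene start, and it is not shown. Krt5 and Krt10 are shown as a basal and a suprabasal member whose level per pooled state stayed within 1.5-fold. Krt2 and Krt77, which lie on either side of Krt1, are shown as members whose levels moved in opposite directions. They are written 5′ to 3′ on the minus strand, and capitals mark TATAAA, the core of the TATA box, together with its near variants GATAAA (found in Krt5, Krt2 and Krt77) and also, in Krt10, Krt2 and Krt77, the letters TATATA. Matches overlap in Krt10 and Krt77.
Krt5, chr15:101712856-101713155: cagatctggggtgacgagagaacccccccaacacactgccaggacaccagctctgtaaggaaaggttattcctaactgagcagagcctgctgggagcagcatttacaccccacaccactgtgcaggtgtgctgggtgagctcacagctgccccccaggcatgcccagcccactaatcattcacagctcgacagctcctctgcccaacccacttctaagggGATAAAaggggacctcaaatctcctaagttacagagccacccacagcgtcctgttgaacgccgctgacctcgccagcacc
Krt10, chr11:99389315-99389614: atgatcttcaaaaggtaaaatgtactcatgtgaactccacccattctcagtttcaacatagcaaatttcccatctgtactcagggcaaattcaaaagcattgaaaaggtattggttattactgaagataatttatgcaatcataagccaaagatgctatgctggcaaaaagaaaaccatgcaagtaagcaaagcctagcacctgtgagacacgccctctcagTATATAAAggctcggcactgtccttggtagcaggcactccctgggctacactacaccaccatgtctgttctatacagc
Krt2, chr15:101818120-101818419: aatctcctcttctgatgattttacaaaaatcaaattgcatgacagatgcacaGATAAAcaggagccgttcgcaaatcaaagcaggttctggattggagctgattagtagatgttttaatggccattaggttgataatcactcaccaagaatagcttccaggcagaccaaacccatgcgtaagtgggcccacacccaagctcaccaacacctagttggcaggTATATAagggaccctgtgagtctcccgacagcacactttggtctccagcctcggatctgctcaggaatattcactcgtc
Krt77, chr15:101869656-101869955: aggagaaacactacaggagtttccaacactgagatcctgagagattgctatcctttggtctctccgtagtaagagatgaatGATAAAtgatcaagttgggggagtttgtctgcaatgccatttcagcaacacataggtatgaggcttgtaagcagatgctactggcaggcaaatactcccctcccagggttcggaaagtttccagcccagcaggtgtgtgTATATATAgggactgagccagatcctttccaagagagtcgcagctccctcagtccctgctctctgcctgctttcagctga
In all 4, and in Krt78, at least 1 of these letter strings began 26 to 30 bases before the start on the gene strand. Of the 32851 promoters of the same length, 3.28% held any of them on that strand from 40 to 20 bases before the start. On either strand and at any position, 13.6% held TATAAA, 10.1% GATAAA and 5.67% TATATA. The letters TGACTCA (AP-1), GCCNNNGGC (AP-2) and GGGCGG (Sp1) were not found on either strand in the 6 windows, and 5.2%, 16.6% and 35.7% of all promoters held them. These matches describe letters only.

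The Chrna5-/- library held 9696 barcodes and 125458721 UMIs (unique molecules counted per gene and cell), and the WT library 10741 barcodes and 139673385 UMIs; 34 barcodes occurred in both. After filters, 8869 Chrna5-/- and 9673 WT cells remained. Chrna5 itself gave 2 UMIs in 2 Chrna5-/- cells and 11 UMIs in 10 WT cells, too few to check the labels. With 1 library per genotype the values have no replicate check and no p-value can be given, and every interval is a 95% interval that covers counting error only. Each difference is between these 2 libraries. Levels are CPM, the counts of a gene scaled to a common total over all UMIs of the same cells. They are not scaled by transcript length, so they compare libraries and states for 1 gene, and ratios are Chrna5-/- over WT. A level counts as higher or lower when the ratio is at least 1.5 either way and its interval leaves out 1.

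Keratinocyte states came from clusters made without any keratin gene and were named from markers that hold no keratin. They held 7099 Chrna5-/- and 7600 WT cells. Basal-like cells (clusters 4, 5, 7 and 9) made up 43.4% of these in the Chrna5-/- library and 41.8% in the WT library, cycling-like cells (11, 13 and 17) 22.3% and 18.9%, suprabasal-like cells (3 and 8) 19.8% and 14.6%, outer root sheath-like cells (2 and 6) 9.61% and 15.9%, and upper hair follicle-like cells (1) 4.14% and 7.13%. Hair matrix-like cells, 53 in the Chrna5-/- and 133 in the WT library, were too few to compare. Cluster 9 is named from marker levels alone. The basal-like clusters with the most cells were 7 and 4 in the Chrna5-/- library (1070 and 1052 cells) and 5 and 4 in the WT library (1248 and 963 cells). Atf3, Dnajb1 and Myc, genes known to respond to stress, were among the 10 genes that led cluster 7, and Ptgs2, an inflammatory enzyme, among those of clusters 5 and 9; their part in the results was not tested. Suprabasal-like cluster 8 held 588 Chrna5-/- and 258 WT cells, and outer root sheath-like cluster 2 held 223 and 625. Of each member's UMIs in all kept cells, 98.0% to 100% in the Chrna5-/- library and 98.6% to 100% in the WT library lay in keratinocyte-like cells. By pooled state, Krt5, Krt14 and Krt15 were highest in basal-like or cycling-like cells, and Krt1 and Krt10 in suprabasal-like cells. Cycling-like cells are named from cell-cycle markers, which do not place them between follicles. Vsnl1 was among the genes that led both cycling-like cluster 13 and outer root sheath-like cluster 6. Krt15 was not particular to basal-like or cycling-like cells: outer root sheath-like cluster 2 had 2812 CPM in Chrna5-/- and 3382 CPM in WT. Pooled basal-like cells had 3635 and 2354 CPM of it. Of the pooled states, upper hair follicle-like cells had the highest CPM of Krt80 and Krt77 in both libraries. For Krt77 this did not hold within states. Among basal-like, cycling-like and suprabasal-like cells, those richest in Krt1 and Krt10 had 4488 CPM of it in Chrna5-/- and 5910 CPM in WT. Upper hair follicle-like cells were not grouped in that way.

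Over all keratinocyte-like cells, the 9 keratins together took 2.80% of the UMIs in the Chrna5-/- library and 2.63% in the WT library. Krt2 and Krt78, the members with the fewest UMIs, were higher in Chrna5-/- cells, and none of the 9 was called lower. Of the 9, 2 were called, against 10.6% of the 14652 genes measured in these cells (2.63% higher and 8.01% lower). State by state, Krt15 was higher and Krt77 lower in Chrna5-/- basal-like cells. Krt5, Krt14, Krt1 and Krt10 stayed within 1.5-fold in each of the 5 states as pooled here. Single clusters of these states passed the rule as lower for Krt5, Krt1 and Krt10. Counting the 5 states and the pool, 8 levels were called higher and 3 lower, against 6.71% to 10.6% of genes called in a state or the pool. The pool holds the cells of the 5 states again, together with the hair matrix-like cells, so its calls are not separate from theirs.

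**Figure D1:**
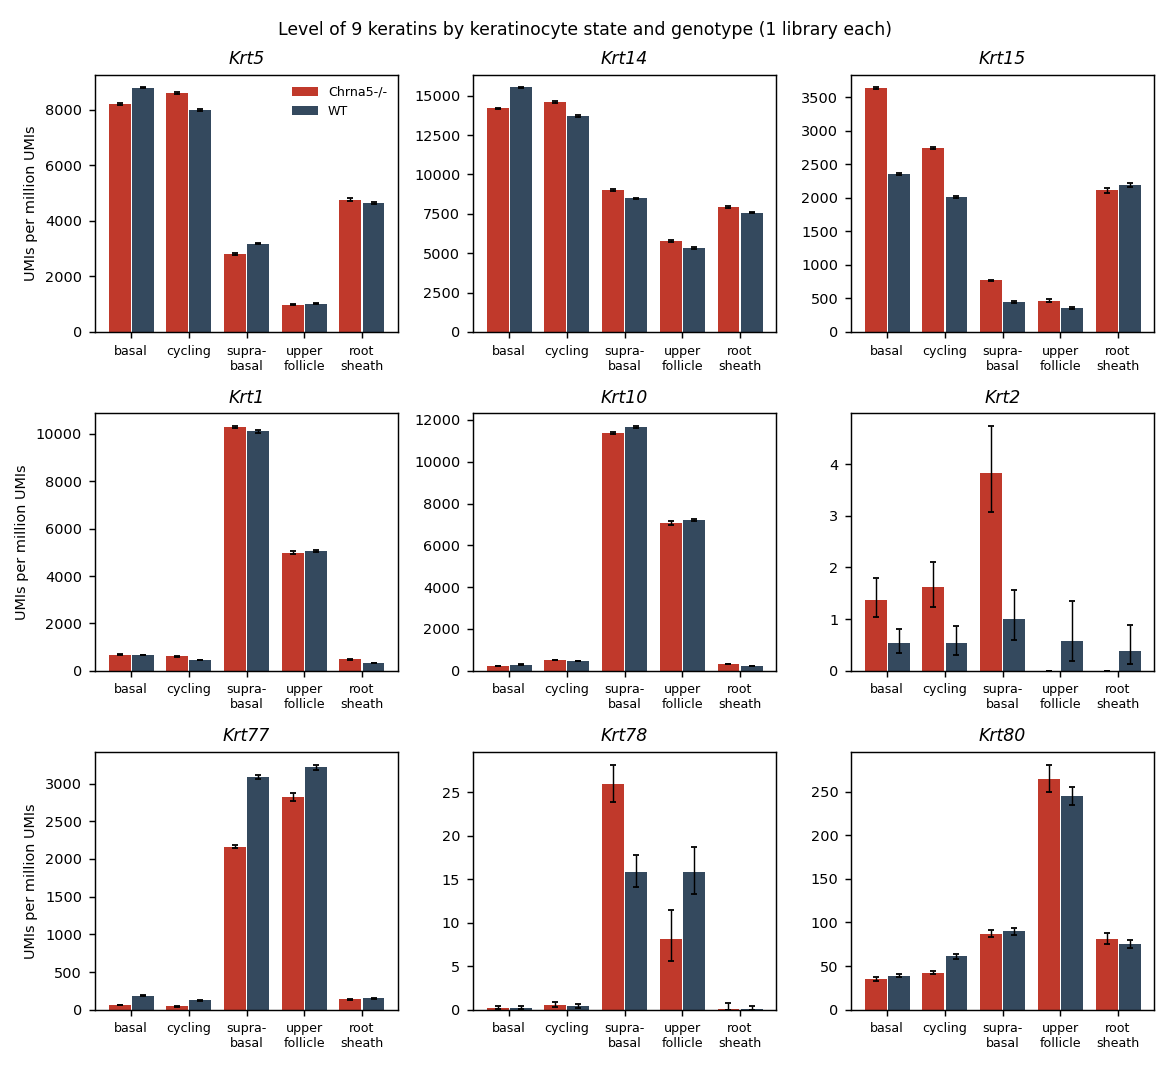
Levels of the 9 keratins in CPM, by keratinocyte state, in the Chrna5-/- library (red) and the WT library (dark blue); bars start at 0 and lines are 95% Poisson intervals. Krt15 in basal-like cells stands at 3635 against 2354 CPM and Krt77 in suprabasal-like cells at 2164 against 3087 CPM.

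Krt5, the basal type II keratin, had 8205 CPM in Chrna5-/- basal-like cells and 8807 CPM in WT ones, a ratio of 0.932 (0.927 to 0.936). In cycling-like cells it had 8613 and 7987 CPM, in outer root sheath-like cells 4761 and 4642 CPM, in suprabasal-like cells 2807 and 3179 CPM and in upper hair follicle-like cells 987 and 1019 CPM. Its order over the states was thus the same in both libraries except that cycling-like cells stood above basal-like cells in the Chrna5-/- library and below them in WT. Within the suprabasal-like pool the clusters differed. Krt5 was lower in Chrna5-/- cells of cluster 3, with 1783 against 2936 CPM (ratio 0.607, 0.598 to 0.617), and stood at 4700 against 4161 CPM in cluster 8.

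Krt14, the partner of Krt5, had 14191 CPM in Chrna5-/- basal-like cells and 15531 CPM in WT ones, a ratio of 0.914 (0.911 to 0.917). In cycling-like cells the values were 14598 and 13716 CPM, in suprabasal-like cells 9011 and 8492 CPM, in outer root sheath-like cells 7937 and 7576 CPM and in upper hair follicle-like cells 5795 and 5347 CPM. The ratios over the 5 states ran from 0.914 to 1.08. Krt5 UMIs per Krt14 UMI came to 0.537 in Chrna5-/- and 0.541 in WT keratinocyte-like cells, 0.578 and 0.567 in basal-like cells, and 0.311 and 0.374 in suprabasal-like cells, where the ratio of these 2 values was 0.832.

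Krt15, a type I keratin of basal cells and of the hair follicle bulge, was higher in Chrna5-/- basal-like cells, with 3635 CPM against 2354 CPM in WT ones (ratio 1.54, 1.53 to 1.56). It was also higher in suprabasal-like cells, with 769 against 448 CPM (1.72, 1.67 to 1.76). In basal-like cells 8.85% of the measured genes were called (3.66% higher and 5.19% lower), and in suprabasal-like cells 8.28% (3.88% higher and 4.4% lower). In cycling-like cells it had 2739 and 2008 CPM (1.36), in upper hair follicle-like cells 464 and 356 CPM (1.30) and in outer root sheath-like cells 2110 and 2190 CPM (0.964), and none of these was called. All 4 basal-like clusters gave ratios from 1.38 to 1.58, of which 2 passed the rule. Both suprabasal-like clusters stood at 1.49, and with the 2 clusters weighted alike the suprabasal-like ratio was 1.49 and no longer called. Outer root sheath-like clusters 2 and 6 went opposite ways, at 0.831 and 1.28.

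Share of cells and level per cell were set side by side after thinning each cell to 1000 UMIs, with shallower cells left out (24 Chrna5-/- and 20 WT basal-like cells, and 77 and 64 lymphoid-like cells). A Krt15 UMI was then found in 82.2% (80.8 to 83.6) of Chrna5-/- and 73.7% (72.1 to 75.2) of WT basal-like cells, and cells with a UMI held 4.62 and 3.26 UMIs on average. The share thus differed 1.12-fold and the level in positive cells 1.42-fold. T and innate lymphoid-like cells should lack keratins and so show the free RNA of the droplets; they had a Krt15 UMI in 8.6% of Chrna5-/- and 8.72% of WT cells. Their median depth was 2831 and 2627 UMIs, against 12387 and 13010 UMIs in basal-like cells. The suprabasal-like share of 27.8% in Chrna5-/- against 22.7% in WT cells also stood above it. Krt5 and Krt14 UMIs were found in 99.5% to 99.9% of basal-like cells in both libraries, against 28.5% and 28.3% (Krt5) and 42% and 45% (Krt14) of the lymphoid-like cells. The basal pair was itself lower in the Chrna5-/- lymphoid-like cells, which held 559 CPM of Krt14 against 1080 CPM in WT, and 333 CPM of Krt5 against 554 CPM. Other cells outside the epithelium went both ways. Krt5 was above WT in dermal papilla-like cells (340 CPM in Chrna5-/- and 268 CPM in WT) and melanocyte-like cells (2143 and 627 CPM). It was below WT in fibroblast-like cells (530 and 680 CPM). Values below WT also came from 3 states too small to compare under the rule of 100 cells per library. These were Langerhans-like (438 and 1408 CPM, 58 and 68 cells), skeletal muscle-like (603 and 3511 CPM, 34 and 32 cells) and pericyte-like cells (322 and 2229 CPM, 4 and 13 cells). Median depth in Langerhans-like cells was 1087.5 UMIs in Chrna5-/- and 3763.5 UMIs in WT. With 5% free RNA subtracted, Krt15 stayed called in basal-like and suprabasal-like cells, with log2 ratios of 0.63 and 0.82.

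**Figure D2:**
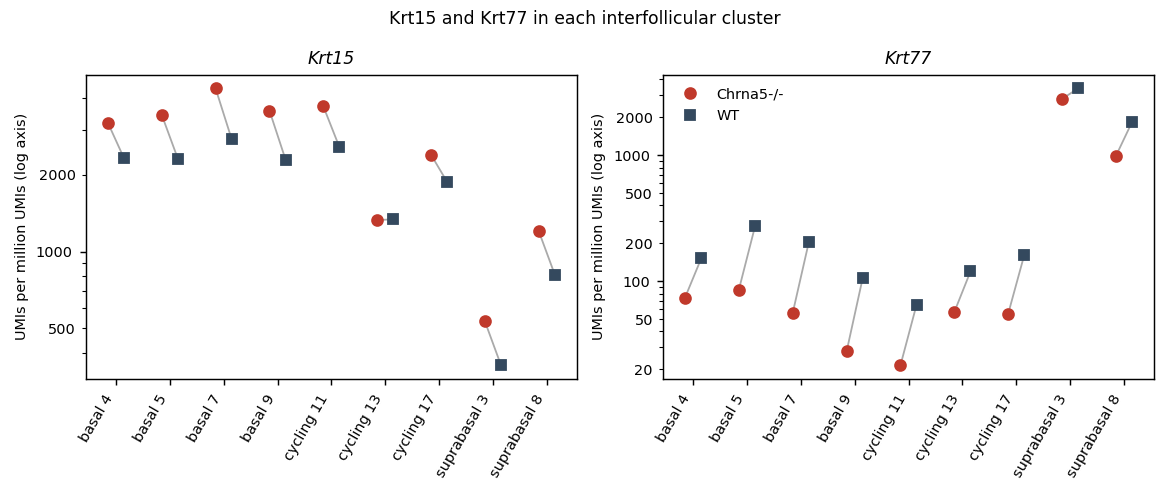
Levels of Krt15 (left) and Krt77 (right) in CPM on log axes, for each basal-like, cycling-like and suprabasal-like cluster, in the Chrna5-/- library (red circles) and the WT library (dark blue squares). Krt15 is higher in the Chrna5-/- library in each cluster but 13, and Krt77 is lower in it in all 9 clusters.

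Krt1, the type II keratin of the first suprabasal layers, had 10307 CPM in Chrna5-/- suprabasal-like cells and 10104 CPM in WT ones (ratio 1.02, 1.01 to 1.03). Krt10, its partner, had 11373 and 11674 CPM there (0.974, 0.969 to 0.98). In upper hair follicle-like cells Krt1 had 4988 and 5055 CPM and Krt10 7061 and 7226 CPM. The 2 suprabasal-like clusters differed: in cluster 3 Krt10 had 14485 CPM in Chrna5-/- and 12524 CPM in WT cells, and in cluster 8 it had 5624 and 8236 CPM (0.683), just short of the rule. Krt1 followed with 12292 and 10552 CPM in cluster 3 and 6641 and 8292 CPM in cluster 8.

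In cells outside these layers, Krt1 had 684 CPM in Chrna5-/- and 655 CPM in WT basal-like cells, 605 and 448 CPM in cycling-like cells and 482 and 331 CPM in outer root sheath-like cells. Krt10 had 239 and 297 CPM, 522 and 456 CPM, and 332 and 229 CPM in the same states. Over the 4 basal-like clusters the Krt10 ratios ran from 0.513 to 0.799, and 2 were called lower. Those of Krt1 ran from 0.651 to 1.09, and 1 was called lower. The basal-like pool was called lower for Krt10 at the coarser clustering (0.663) and with free RNA subtracted (0.595). The outer root sheath-like ratios, 1.46 for Krt1 and 1.45 for Krt10, lay just under the rule and passed it with 5% free RNA subtracted (1.60 and 1.85), as a mean over cells (1.72 and 1.68) and after thinning (1.80 and 1.62), in a state where the Chrna5-/- cells were mostly of cluster 6 and the WT cells mostly of cluster 2. Krt1 UMIs per Krt10 UMI came to 2.86 in Chrna5-/- and 2.21 in WT basal-like cells, 0.906 and 0.866 in suprabasal-like cells, and 1.11 and 0.744 in the lymphoid-like cells.

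After thinning, a Krt1 UMI was found in 94.7% of suprabasal-like cells of each library, and a Krt10 UMI in 86.6% of Chrna5-/- and 88.8% of WT ones. In basal-like cells the Krt1 share was 30.1% and 28.2%, against 14.5% and 10.4% in lymphoid-like cells. The Krt10 share in basal-like cells, 11.1% and 12.8%, did not exceed the 13.3% and 14.2% of the lymphoid-like cells, although without thinning basal-like cells held 3.04 and 3.99 Krt10 UMIs each against 0.407 and 0.381 in the shallower lymphoid-like cells. In cycling-like cells a Krt10 UMI was found in 16.9% of Chrna5-/- and 10.7% of WT cells, and without thinning they held 11.3 and 10.1 UMIs each.

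Over all keratinocyte-like cells, Krt1 and Krt10 together took 0.566% of the UMIs in the Chrna5-/- library and 0.509% in the WT library. An arithmetic split over the 13 keratinocyte-like clusters compared mean CPM per cell when only the share of cells in each cluster differed and when only the level in each cluster differed. For Krt1, the shares alone gave 1.14 and the levels alone 1.07, with 1.22 for both. For Krt10 the shares gave 1.10, the levels 1.03 and both 1.14. For Krt5 the shares gave 1.08 and the levels 0.949, and for Krt14 1.09 and 0.966, so that the parts pulled in opposite directions. For the other 5 the level part was the larger: Krt15 (1.02 and 1.39), Krt2 (1.21 and 2.37), Krt77 (1.00 and 0.731), Krt78 (1.01 and 1.84) and Krt80 (0.953 and 0.909), each given as shares alone and levels alone. The split moved with the clustering: the level part of Krt10 was 0.936 and 0.923 at the coarser and finer clustering and 0.901 with keratins among the clustering genes, and that of Krt1 was 1.01, 0.979 and 1.01. With keratins among the clustering genes, Krt78 turned to 1.71 for shares and 1.13 for levels.

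**Figure D3:**
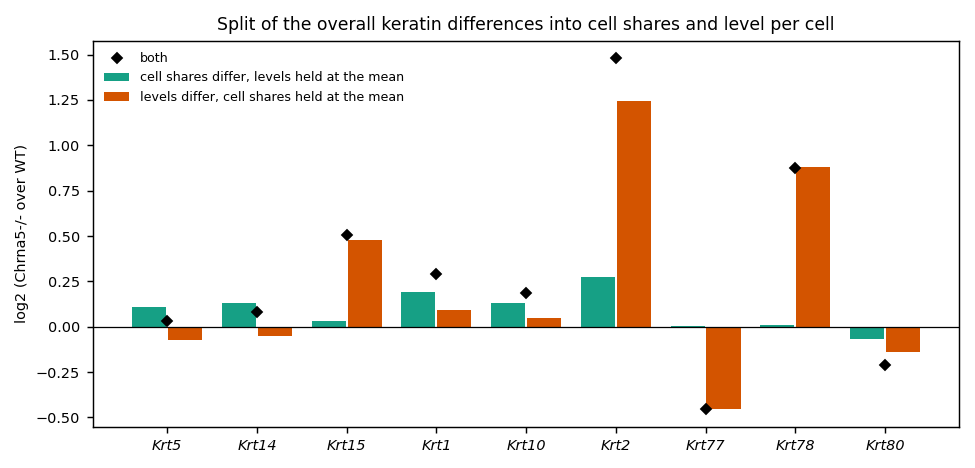
Split of each keratin's difference over all keratinocyte-like cells, as log2 of Chrna5-/- over WT mean CPM per cell: cell shares alone (green), levels alone (orange) and both (black diamonds). Krt1 and Krt10 have the longer green bar, and Krt15, Krt2, Krt77, Krt78 and Krt80 the longer orange bar, which for Krt78 turned with keratins among the clustering genes.

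The keratin makeup of single cells was read as the share of Krt1 and Krt10 among their UMIs of Krt5, Krt14, Krt1 and Krt10, in cells with at least 20 such UMIs (6870 Chrna5-/- and 7256 WT cells). The share was under 0.1 in 73.5% (72.4 to 74.5) of Chrna5-/- and 76.6% (75.7 to 77.6) of WT keratinocyte-like cells. It was 0.9 or more in 6.64% (6.06 to 7.25) and 5.80% (5.28 to 6.36), and between 0.4 and 0.6 in 3.83% and 3.38%. Within the suprabasal-like state its median was 0.648 in Chrna5-/- and 0.665 in WT cells, with 28.9% and 29.4% of cells at 0.9 or more. Cells of mixed makeup were thus present in both libraries, with overlapping intervals of 3.39 to 4.31 and 2.97 to 3.82.

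Krt77, a type II keratin next to Krt1 in the genome and made above the basal layer in mouse skin, was lower in Chrna5-/- basal-like cells, with 65.4 CPM against 187 CPM in WT ones (ratio 0.349, 0.333 to 0.365). It was also lower in cycling-like cells, with 44.1 CPM against 124 CPM (0.356, 0.336 to 0.378), with 336 of 1516 Chrna5-/- UMIs and 370 of 3923 WT UMIs in the highest cell of each library, in a state where 8.1% of the measured genes were called (2.69% higher and 5.41% lower). In suprabasal-like cells it had 2164 CPM in Chrna5-/- and 3087 CPM in WT cells (0.701, 0.693 to 0.71), short of the rule as a pool but lower in cluster 8, with 987 against 1836 CPM (0.537). In upper hair follicle-like cells it had 2818 and 3215 CPM (0.876) and in outer root sheath-like cells 136 and 150 CPM (0.909). All 4 basal-like clusters (0.26 to 0.49) and all 3 cycling-like clusters (0.33 to 0.476) passed the rule.

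After thinning, a Krt77 UMI was found in 5.53% (4.74 to 6.40) of Chrna5-/- basal-like cells and 14.3% (13.1 to 15.6) of WT ones, while positive cells held 1.28 and 1.41 UMIs. At so low a level positive cells hold close to 1 UMI, so share and level cannot be told apart here. The lymphoid-like cells had a Krt77 UMI in 7.37% (5.03 to 10.4) and 5.45% (3.36 to 8.29), so that at this thinning the Chrna5-/- basal-like share did not stand above theirs, while the WT share did. The lymphoid-like cells held 50.4 and 75.8 CPM of it. In cycling-like cells the shares were 2.65% and 6.08% and did not stand above them either. In suprabasal-like cells they were 56.6% (53.9 to 59.2) and 66.5% (63.7 to 69.3), with 3.69 and 4.60 UMIs per positive cell. Without thinning, basal-like cells held 0.83 Krt77 UMIs each in the Chrna5-/- library and 2.52 in WT, cycling-like cells 0.957 and 2.74, and the lymphoid-like cells, whose depth was lower, 0.151 and 0.204. With 5% free RNA subtracted, the ratio was 0.249 in basal-like and 0.185 in cycling-like cells, against 0.349 and 0.356 without.

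Cells of the basal-like, cycling-like and suprabasal-like states were also grouped by their keratin makeup, which used neither Krt77 nor Krt15. Where the share of Krt1 and Krt10 was under 0.1, Krt77 had 36.9 CPM in Chrna5-/- and 116 CPM in WT cells (0.317). From 0.1 to 0.5 it had 452 and 886 CPM (0.511), from 0.5 to 0.9 it had 1489 and 2573 CPM (0.579), and at 0.9 or more it had 4488 and 5910 CPM (0.759, 0.748 to 0.771). Its level thus climbed with the share of suprabasal keratins in both libraries and was below WT in the Chrna5-/- library in each range. Krt15 had 3308 and 2242 CPM under 0.1 (1.48), 1618 and 1055 CPM from 0.1 to 0.5 (1.53), 626 and 558 CPM from 0.5 to 0.9 (1.12) and 302 and 117 CPM at 0.9 or more (2.58, 2.37 to 2.82).

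**Figure D4:**
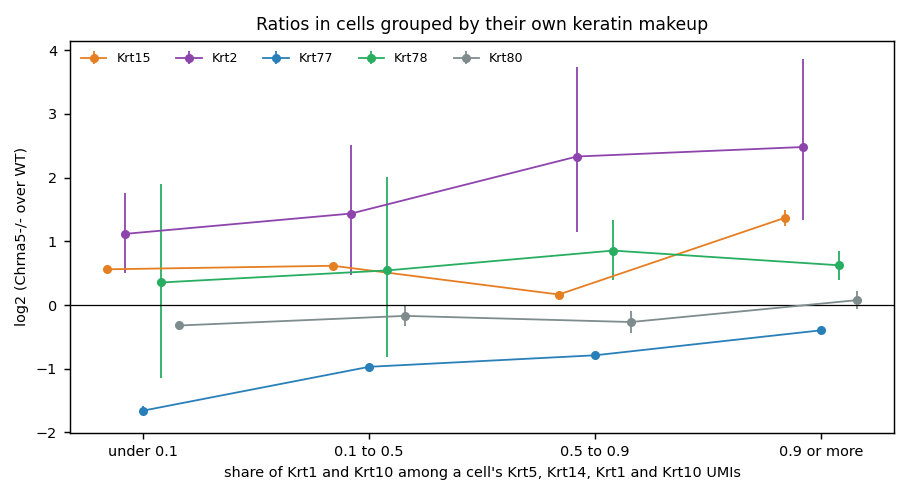
Log2 ratios of Chrna5-/- over WT for Krt15, Krt2, Krt77, Krt78 and Krt80 in basal-like, cycling-like and suprabasal-like cells, grouped by the share of Krt1 and Krt10 among a cell's Krt5, Krt14, Krt1 and Krt10 UMIs; lines are 95% counting intervals. Krt77 lies below 0 and Krt15 and Krt2 above 0 in each of the 4 ranges.

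Krt2, the keratin of the upper spinous and granular layers in some body regions, was scarce, with 195 UMIs in 146 Chrna5-/- and 69 UMIs in 60 WT keratinocyte-like cells (ratio 3.06, 2.31 to 4.09). It was higher in basal-like cells (54 against 23 UMIs, 2.56), cycling-like cells (56 against 17, 3.04) and suprabasal-like cells (85 against 19, 3.82). Upper hair follicle-like and outer root sheath-like cells had 0 UMIs in the Chrna5-/- library and 5 in WT in each of these states, counts that allow no fold. Suprabasal-like cells held the highest level in both libraries, 3.84 and 1.00 CPM. The cycling-like count rested on few cells: 1 Chrna5-/- cell held 17 of the 56 UMIs, and without the 3 highest cells of each library the log2 ratio was 1.05 instead of 1.60. Of the basal-like UMIs, cluster 7 held 27 in the Chrna5-/- library and 1 in WT and was the only basal-like cluster called, while cluster 5 held 7 and 13. After thinning, a Krt2 UMI was left in 0.327% (0.157 to 0.601) of Chrna5-/- and 0.0633% (0.00767 to 0.228) of WT basal-like cells, and in 0 of the thinned lymphoid-like cells of either library, which allows shares of up to 0.737% in the Chrna5-/- library and 0.817% in WT. These limits are too wide to set the basal-like shares apart from background.

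Krt78, a type II keratin of the upper layers, was higher in Chrna5-/- suprabasal-like cells, with 576 UMIs against 300 in WT (26 against 15.8 CPM, ratio 1.64, 1.43 to 1.89). It was found in 216 of 1404 Chrna5-/- and 116 of 1107 WT cells of that state, without thinning, and most of it lay in cluster 3 with 545 and 295 UMIs. Taken apart, both suprabasal-like clusters were called higher, with ratios of 1.95 and 2.99, cluster 8 on few UMIs. In upper hair follicle-like cells it was lower, with 33 against 136 UMIs (8.15 against 15.8 CPM, 0.514, 0.34 to 0.757), in a state where 6.71% of genes were called (2.69% higher and 4.02% lower). Those UMIs lay in 7 Chrna5-/- and 14 WT cells, and the highest WT cell held 29. Without the 3 highest cells of each library the log2 ratio there was -2.46 instead of -0.96. In basal-like, cycling-like and outer root sheath-like cells it had 8, 20 and 1 UMIs in the Chrna5-/- library and 8, 12 and 1 in WT. The suprabasal-like call was lost with keratins among the clustering genes (1.31), at the finer clustering (1.19) and with its interval after thinning (1.81).

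Krt80, found in many stratified epithelia, had its highest level in upper hair follicle-like cells, 265 CPM in the Chrna5-/- and 245 CPM in the WT library (1.08). It had 87.3 and 89.7 CPM in suprabasal-like cells, 81.3 and 74.8 CPM in outer root sheath-like cells, 42.6 and 61.0 CPM in cycling-like cells (0.698) and 35.2 and 39.1 CPM in basal-like cells. No state passed the rule, and over all keratinocyte-like cells the ratio was 0.834 (0.807 to 0.862). A UMI was left after thinning in 7.17% and 8.16% of suprabasal-like cells, against 0.246% and 0% of lymphoid-like cells. In outer root sheath-like cells, where 6.95% of genes were called (2.76% higher and 4.19% lower), none of the 7 members measured was.

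**Figure D5:**
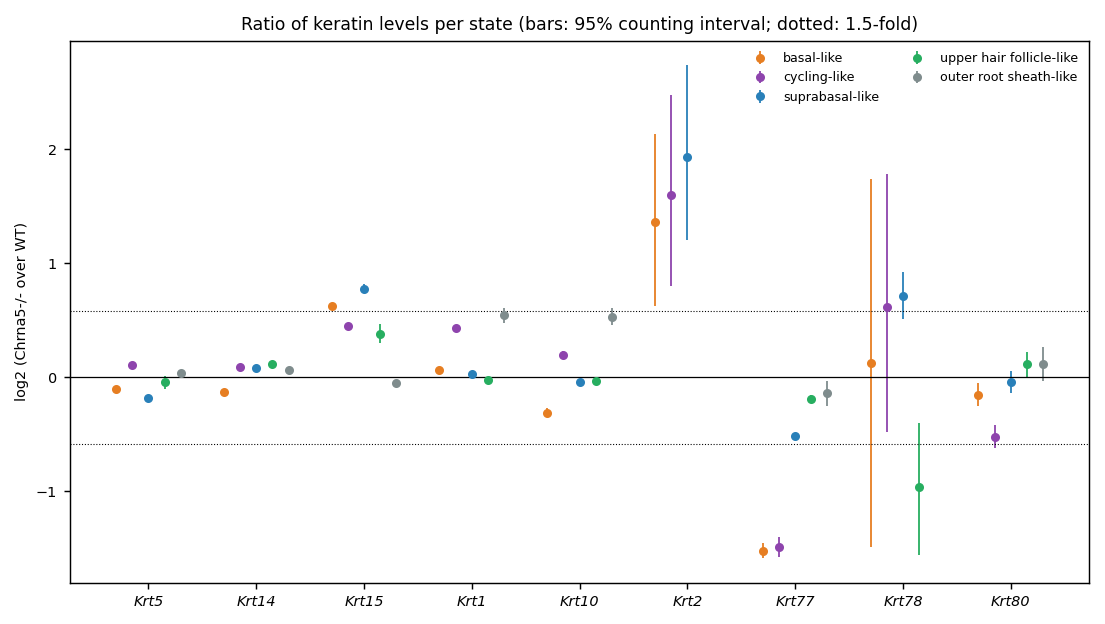
Log2 ratios of Chrna5-/- over WT levels for the 9 keratins in 5 keratinocyte states, with 95% counting intervals; dotted lines mark 1.5-fold, and a point is left out where a library held 3 UMIs or fewer. Krt5 and Krt14 lie between the dotted lines in each state, Krt77 lies below them in basal-like and cycling-like cells, and Krt78 lies above in suprabasal-like and below in upper hair follicle-like cells.

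Over the 13 keratinocyte-like clusters of both libraries (26 values of log2(CPM + 1), which share library and depth), the basal pair and most suprabasal members each varied together. Pearson's r was 0.86 between Krt5 and Krt14, 0.94 between Krt1 and Krt10, 0.91 between Krt10 and Krt77 and 0.88 between Krt10 and Krt78. Krt80 stood at 0.72 with Krt77, 0.60 with Krt1, 0.58 with Krt10 and 0.43 with Krt78. Of the basal members only Krt14 came near these values (0.62), with Krt5 at 0.27 and Krt15 at 0.21. Krt2 reached at most 0.56, with Krt1. Of 7055 other genes, those most like Krt14 were Anxa2 (0.977), Slc2a1 (0.977) and Fam81a (0.959), those most like Krt10 were Elovl4 (0.966), Prdx5 (0.949) and Rab25 (0.939), and those most like Krt2 were Tgm3 (0.73), Trappc10 (0.722) and Rab10 (0.72). Elovl4 makes very long chain fatty acids for the skin barrier, Slc2a1 is a glucose transporter, and Tgm3 is a transglutaminase of the upper layers.

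Genes that work with these keratins were read over all keratinocyte-like cells, where the median log2 ratio of measured genes was -0.037 and 2.63% were called higher and 8.01% lower. Of 18 keratin anchors, the desmosome and plakin proteins that tie filaments to cell junctions, none was called, with a median of -0.013: Dst, which links keratins to the basement membrane, had a ratio of 1.45 and Pkp2 1.39 (32 against 25 UMIs), and Dsg2 had 0.736 and Eppk1 0.821. In basal-like cells taken alone, 2 of the 17 anchors measured were higher, against 3.66% of genes. In the pool, none of 11 genes of basal layer adhesion was called (median -0.072), with Lama3 at 1.22, Itgb1 at 0.986 and Itga2 at 0.84. Of 26 regulators of differentiation 1 was lower (median -0.114): Prdm1, a transcriptional repressor, had 14.1 CPM in Chrna5-/- and 31.1 CPM in WT cells (0.454). Hey1 (1.39, 32 against 25 UMIs) and Maf (1.23) had the highest values.

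Against the same 2.63% higher and 8.01% lower over all genes, genes of the spinous and granular layers were divided, with 4 higher, 7 lower and 13 neither of 24 measured (median -0.363). Mt4, a metallothionein of stratified epithelium, had 348 CPM in Chrna5-/- and 166 CPM in WT cells (2.1), and Them5 had 33.6 and 16.8 CPM (2.00). Flg, the filament-bundling filaggrin of the granular layer, had 1.86 and 10.8 CPM (0.173), and Hrnr had 25 and 77 UMIs (0.352). The 4 stress-induced keratins were all lower in basal-like cells, where 5.19% of genes were. In cycling-like cells 2 were lower and 1 higher (5.41% and 2.69% of genes), and in upper hair follicle-like cells 3 and 1 (4.02% and 2.69%). In the pool, Krt17 (0.424), Krt6a (0.468) and Krt16 (0.643) were lower and Krt6b was at 1.15. Of 4 simple epithelial keratins, Krt18 was higher (1.53, 72 against 51 UMIs) and Krt19 lower (0.65, 42 against 70 UMIs), with Krt8 at 1.20 and Krt7 at 0.787. Over all 27 measured of the 44 other keratins, these included, 3 were higher and 17 lower, with a median of -0.692, against 0.102 for the 9 members. Krt33a (2.48, 32 against 14 UMIs) and Krt32 (2.23) were the highest, and Krt35 (4 against 36 UMIs, 0.12) and Krt73 (10 against 59 UMIs, 0.184) the lowest. All 4 are keratins of the hair follicle. These pooled values mix cell shares and levels, with 53 Chrna5-/- and 133 WT hair matrix-like cells in the pool. By state, the median of the other keratins was -0.822 in basal-like, -0.240 in cycling-like and -0.529 in suprabasal-like cells. It was -0.623 in upper hair follicle-like and -0.194 in outer root sheath-like cells.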

How the data were processed

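The deposited matrices held UMI counts, whole numbers per gene and barcode, per the file headers. Per the submitters' processing notes, Cell Ranger 3.0.2 and mm10 were used, with Seurat 3.0 named without a role; the file headers give Cell Ranger 3.1.0. Barcodes were kept with at least 500 UMIs, 300 genes and at most 20% mitochondrial UMIs. Doublets (Scrublet in scanpy 1.11.5) were removed above a score of 0.25, set after the data were seen: 439 of 9308 Chrna5-/- cells (4.72%) and 487 of 10160 WT cells (4.79%). Clustering (2000 variable genes, 30 components, 15 neighbours, Leiden resolution 1) used no keratin, keratin-associated, mitochondrial, ribosomal, haemoglobin, dissociation-stress or sex-linked gene. Cluster 14, led by Icos and Cd28, and the shallow cluster 16 stayed unnamed. Clusters took the class of highest marker level with at least 3 markers in 25% of cells. A state was compared where each library held 100 cells or more of it. Summed counts gave CPM with exact conditional binomial intervals on ratios and Clopper-Pearson intervals on shares (scipy 1.17.1). Genes with at least 20 UMIs over both libraries counted as measured; no fold is given where both counts were 3 or fewer, and a count of 0 took the value 3. TMM factors came from edgeR 4.0.16. The ratio and thinning steps were tested on simulated data. Named genes are all 9 members, of each gene list the 2 highest and 2 lowest ratios, and the 3 genes most like Krt14, Krt10 and Krt2. Some genes that this rule names are not reported here. Members and lists were chosen with earlier results of these data known.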

Additional observations from a re-analysis of the deposited data

Results flagged for a closer look

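Krt78 was called in opposite directions in a pair of states. Its log2 ratio was 0.71 in suprabasal-like cells and -0.96 in upper hair follicle-like cells, and the difference between the states was not tested. Of the upper hair follicle-like UMIs, the 3 highest Chrna5-/- cells (of 294) held 81.8% of 33 and the 6 highest WT cells (of 542) held 74.3% of 136.

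Keratin UMIs were also present in the 2 unnamed clusters, which entered no comparison. In cluster 14, led by the lymphoid genes Icos and Cd28 (184 Chrna5-/- and 327 WT cells), the log2 ratios were 3.01 for Krt10, 2.42 for Krt1, 0.91 for Krt77 and -0.85 for Krt5. Of the 604 Krt10 UMIs there in the Chrna5-/- library 1 cell held 463, and of its 550 Krt1 UMIs 1 cell held 381. In cluster 16 (115 and 163 cells, median 915 and 969 UMIs) the log2 ratio was 0.60 for Krt15.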

How the results depend on the processing

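No paired analysis was possible because each genotype has 1 library. Each level ratio was recomputed under up to 14 alternatives, of which the one without the 3 highest cells was chosen after seeing the data. No called ratio changed direction. The calls of Krt15 and Krt77 in basal-like cells, Krt77 and Krt2 in cycling-like cells and Krt2 in basal-like cells and in the pool held under each alternative that gave a value (Krt15 1.51 to 1.58, Krt77 0.249 to 0.367 and 0.185 to 0.427, Krt2 2.08 to 3.12, 2.27 to 5.17 and 2.37 to 3.43). The suprabasal-like calls of Krt15 (1.49 to 1.93) and Krt2 (2.86 to 5.07) were each lost under 1. Krt78 lost more calls than Krt15, Krt2 or Krt77: its calls held under 10 of 14 alternatives in the pool, 11 in suprabasal-like cells (1.19 to 2.02) and 11 in upper hair follicle-like cells (0.182 to 0.862). After subtracting 5% free RNA, Krt10 became lower in basal-like cells (0.595). The number of thinned shares higher by 1.5-fold with separate intervals was 2, against 4 without thinning. It was 0 without doublet removal and 1 with keratins among the clustering genes, and the cause was not tested. The percentages of genes called that are given here are for level ratios. None is given for shares, so these counts of shares have no background to be read against, and no conclusion is drawn from them. With no minimum on UMIs, 8.32% of genes were called in the pool. Without the 3 highest cells the upper hair follicle-like log2 ratio of Krt78 was -2.46. With 1 library per genotype, depth limits Krt2 and Krt78 most.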
